A study of Mus musculus with 2 samples.

Results

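The accessibility of 41 imprinted genes was examined in motor neuron progenitors derived from mouse embryonic stem (ES) cells. The genes were taken by name, 33 of them protein-coding and 8 noncoding. No measured value was used as a rule to choose them, but earlier results of these data were known. Each consensus ATAC-seq interval that overlapped a transcription start site (TSS) of a member was taken as its TSS interval, and every further interval within 10 kb of a member gene was added, which gave 265 of the 119502 intervals. ATAC-seq reads out open chromatin, where the Tn5 transposase can insert sequencing adapters. Both libraries came from 1 group, live cells of the ES line Olig2-mKate2 sorted for the red fluorescent protein mKate2, which is expressed from the Olig2 gene, on day 5 of differentiation in 100 nM SAG, which switches on the Sonic hedgehog pathway, and 100 nM retinoic acid, with 50000 cells per transposition. ES cells had been kept on fibroblast feeders that were removed by plating before differentiation, and by the study's own account the reporter gate also holds newly born motor neurons and some cells positive for both OLIG2 and NKX2.2. There was no second group, so accessibility was compared between genes, between promoters of 1 gene and between the 2 libraries.

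An imprinted gene is transcribed mainly from the copy inherited from 1 parent. The memory lies in germline differentially methylated regions, which gain DNA methylation in the oocyte or in sperm and keep it after fertilization, when the zinc finger protein ZFP57 binds the methylated word TGCCGC and holds the silencing machinery in place. Many maternally methylated regions are promoters, and many imprinted genes act in fetal growth, placenta and brain. Fragments from the maternal and the paternal chromosome were counted together, so these values cannot tell which copy was open.

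The libraries held 31876165 and 31672240 counts in intervals. All 4 progenitor markers (Olig2, Nkx6-1, Sox2 and Pax6) had a TSS interval. The motor neuron markers had one in 2 of 3 (Mnx1 and Isl1, not Chat). The pluripotency markers had one in 1 of 3 (Esrrb, not Pou5f1 or Nanog), and the fibroblast markers in 2 of 3 (Col1a1 and Thy1, not Col3a1). The part of other cells in the values below was not tested.

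Some member intervals held short words, known as parts of protein binding sites, in many copies. In the promoter shared by Peg3 and Usp29, the word GCCATNTT, the core of sites for the zinc finger protein YY1, occurred 11 times. The stretch chr7:6728211-6728510 (mm10, + strand, 2058 bp inside Peg3 from its start) is shown with 3 of them in capitals, all on the - strand.
Peg3: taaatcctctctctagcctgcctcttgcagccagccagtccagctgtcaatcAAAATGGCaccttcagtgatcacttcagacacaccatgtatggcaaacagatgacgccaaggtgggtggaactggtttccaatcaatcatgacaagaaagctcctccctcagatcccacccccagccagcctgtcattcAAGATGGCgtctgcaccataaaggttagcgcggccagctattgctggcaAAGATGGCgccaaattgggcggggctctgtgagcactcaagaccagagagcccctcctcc

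The ZFP57 word TGCCGC occurred 11 times in the main promoter interval of Mest, 10 times in that of Snrpn and 8 times in that of Airn. The stretches chr6:30737560-30737859 at Mest, chr7:60004587-60004886 at Snrpn and chr17:12742139-12742438 at Airn (mm10, + strand) show it in capitals, as TGCCGC or, on the other strand, GCGGCA.
Mest: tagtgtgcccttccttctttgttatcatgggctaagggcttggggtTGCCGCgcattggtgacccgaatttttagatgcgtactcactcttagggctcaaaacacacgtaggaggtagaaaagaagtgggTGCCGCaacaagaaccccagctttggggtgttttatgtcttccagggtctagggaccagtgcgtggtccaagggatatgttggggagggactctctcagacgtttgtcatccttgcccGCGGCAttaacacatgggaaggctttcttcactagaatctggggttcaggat
Snrpn: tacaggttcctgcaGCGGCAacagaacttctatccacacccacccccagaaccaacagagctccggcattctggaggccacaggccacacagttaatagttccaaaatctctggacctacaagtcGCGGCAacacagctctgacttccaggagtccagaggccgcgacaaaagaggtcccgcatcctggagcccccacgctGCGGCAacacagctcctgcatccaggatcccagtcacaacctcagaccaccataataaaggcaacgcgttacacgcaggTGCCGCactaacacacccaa
Airn: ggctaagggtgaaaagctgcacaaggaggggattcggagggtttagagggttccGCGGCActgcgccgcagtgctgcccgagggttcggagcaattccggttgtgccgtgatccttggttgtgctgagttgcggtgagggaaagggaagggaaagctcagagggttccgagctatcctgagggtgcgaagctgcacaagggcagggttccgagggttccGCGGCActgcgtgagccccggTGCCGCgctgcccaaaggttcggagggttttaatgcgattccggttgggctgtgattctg

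H19 had no interval at its start, but an interval at chr7:142580070-142582096, which began 1927 bp upstream of it, held 5 copies of GGNGGCAG, part of the motif of the insulator protein CTCF. All were on the - strand and are shown on the + strand, in capitals as the complement read backwards, within 40 bases each. They lie at chr7:142580293-142580332, chr7:142580748-142580787, chr7:142581774-142581813, chr7:142581893-142581932 and chr7:142582018-142582057.
H19 upstream word 1: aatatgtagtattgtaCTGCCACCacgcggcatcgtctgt
H19 upstream word 2: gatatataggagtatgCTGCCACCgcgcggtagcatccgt
H19 upstream word 3: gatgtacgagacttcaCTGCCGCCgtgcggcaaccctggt
H19 upstream word 4: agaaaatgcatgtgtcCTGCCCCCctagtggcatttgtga
H19 upstream word 5: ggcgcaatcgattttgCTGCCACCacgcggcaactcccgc
In 4 of the 5, on the - strand, CCGC stood 2 bases before the word. This pattern was looked for after these sequences had been seen. Of all 119502 intervals, 189 held it at least once and 1 interval, that upstream of H19, held it 3 or more times.

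Most of the 41 imprinted genes had an accessible promoter. Among genes with a TSS interval, the median density of members was somewhat below that of all genes. A TSS interval was found for 36 of the 41 members (87.8%), 30 of 33 coding and 6 of 8 noncoding. It was found for 68.1% of all 21951 protein-coding genes and for 34.6% of all 55450 genes of any type. Accessibility of a promoter is given as density, the count of its TSS intervals after scaling by DESeq2 size factors, per kb of interval, and ± is the SD over 2 libraries throughout. Over the members with a TSS interval the median density was 688 ± 14.2. Over all 19199 genes with one it was 774 ± 19.3, and over the protein-coding genes with one it was 827 ± 18.2. With each TSS interval taken once, the medians lay closer, at 654 ± 49.7 for members and 671 ± 13.5 for all. Of the members, 13 lay above the all-gene median of 774, and 23 with a TSS interval lay below it, while 12 lay above the protein-coding median. A further 18 imprinted genes outside the 41 had a lower median of 395 over the 17 with a TSS interval. With counts summed over the TSS intervals of a gene in place of density, 25 members lay above the corresponding median. Member TSS intervals were longer, with a median of 1587.5 bp against 1157 bp for all 18357 TSS intervals. Such sums grow with both the length and the number of the TSS intervals of a gene. The part of each in this shift was not tested.

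**Figure D1:**
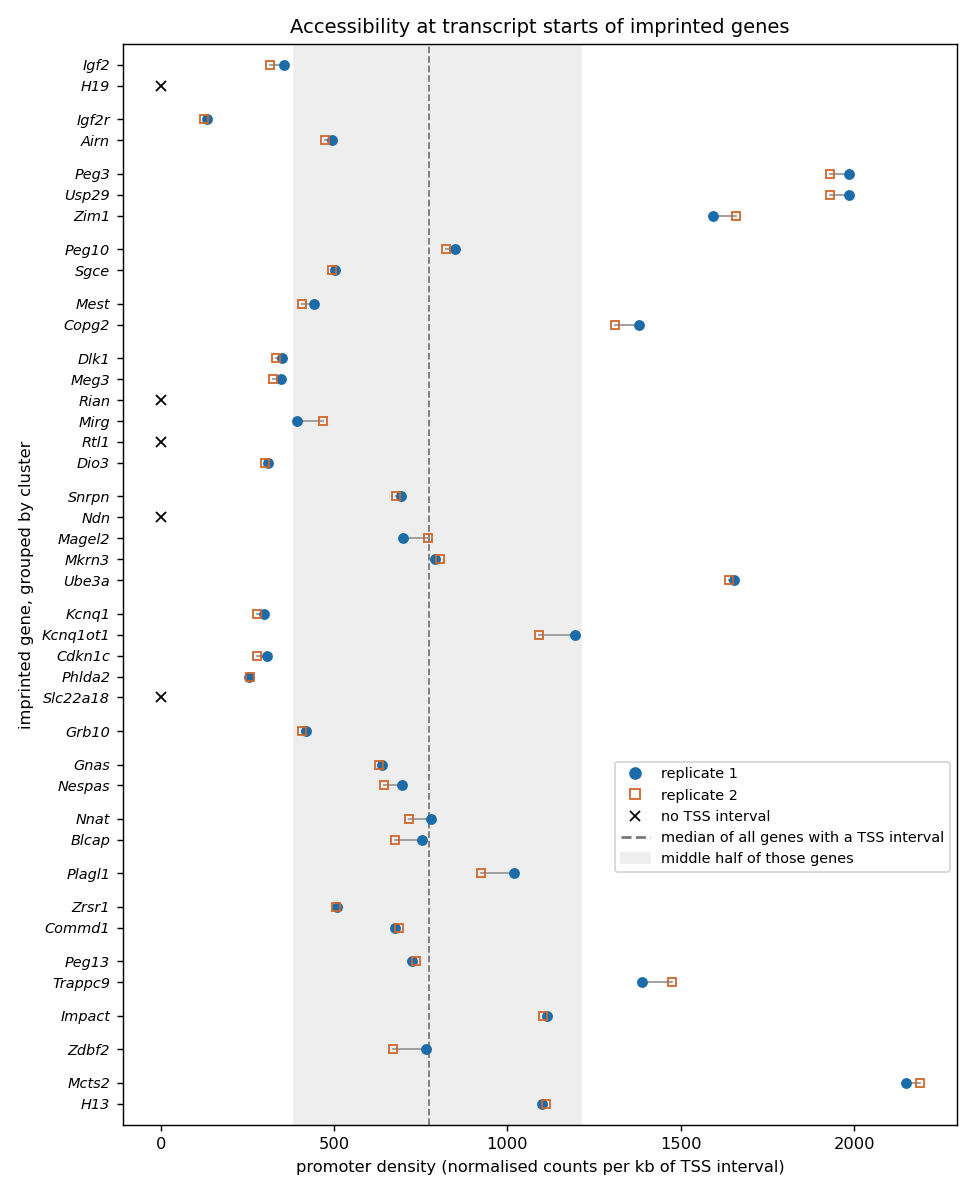
Density at the TSS intervals of the 41 imprinted genes (x axis, normalized counts per kb; y axis, genes in order of cluster). Filled circles are replicate 1 and open squares replicate 2, crosses mark the 5 genes without a TSS interval, the gray band spans the 25th to 75th percentile of all genes with a TSS interval (385 to 1212) and the dashed line is their median of 774. Mcts2, Peg3, Usp29, Ube3a, Zim1, Trappc9 and Copg2 lie to the right of the band in both libraries, and all members of the Dlk1-Dio3 cluster lie to the left of the dashed line.

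The 3 densest members were Mcts2, Peg3 and Usp29, followed by Ube3a and Zim1. Mcts2, an intronless copy of a translation factor gene that sits in an intron of H13, had 2150 and 2189 normalized counts per kb in replicates 1 and 2, above 96.5% of all genes with a TSS interval. The promoter from which Peg3 and Usp29 are transcribed in opposite directions had 1986 and 1930 over 3675 bp at chr7:6727381-6731055. Peg3 encodes a zinc finger protein of maternal care and growth, Usp29 a ubiquitin protease, and both are usually paternally expressed. The start of Zim1, their usually maternally expressed neighbor, had 1592 and 1659. Peg3, Usp29 and Zim1 were thus above the all-gene 75th percentile in both libraries, and the counts of Peg3 and Usp29 cannot be told apart because their starts share 1 interval.

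In the Snrpn-Ube3a cluster, the region affected in Prader-Willi and Angelman syndromes, the promoters of Snrpn, Magel2 and Mkrn3 lay near the all-gene median and that of Ube3a far above it. Ube3a, a ubiquitin ligase silenced on the paternal copy in mature neurons, had 1652 and 1639 normalized counts per kb. Snrpn, a splicing protein gene whose promoter is the imprinting center, had 694 and 679. Magel2 had 699 and 770, and Mkrn3 had 791 and 806. Ube3a was more than 2 times as dense as each of these in both libraries.

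Necdin (Ndn), a growth suppressor of neurons, had no TSS interval by the GENCODE start. Its 1 interval at chr7:62348118-62349080, inside the gene as GENCODE draws it and 1549 bp from that start, had 826 and 886 normalized counts per kb. RefSeq places the start of Ndn at position 62348277 of the same chromosome, within this interval. By the RefSeq start, 37 of the 41 members had a TSS interval and the density of Ndn was above the all-gene median.

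Several paternally expressed genes lie inside an intron of, or beside, a host gene, and the order of the 2 promoters differed from pair to pair. Mcts2 was 1.96 ± 0.00938 times as dense as the promoter of its host H13, a signal peptide peptidase (1099 and 1112). Kcnq1ot1, the antisense RNA that starts within the potassium channel gene Kcnq1, had 1196 and 1090 normalized counts per kb, against 297 and 276 at Kcnq1 itself, which is 3.99 ± 0.0626 times as dense. Airn, the antisense RNA that starts in an intron of Igf2r, had 494 and 472, which was 3.02 ± 0.208 times the density at the main start of Igf2r (172 and 149). In these 3 pairs the inner, usually paternal promoter was the denser one in both libraries.

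The opposite order was found at Peg13, Zrsr1 and Mest. Peg13, a noncoding RNA within Trappc9, had 726 and 737 normalized counts per kb against 1390 and 1475 at Trappc9, a vesicle transport gene, a ratio of 0.511 ± 0.0158. Zrsr1, a splicing factor gene in an intron of Commd1, had 508 and 507 against 1193 and 1227 at the main start of Commd1, a ratio of 0.419 ± 0.00862. Mest, a hydrolase gene of mesoderm and brain, had 684 and 625 at its main promoter against 1379 and 1310 at Copg2, a coat protein gene that overlaps it tail to tail, a ratio of 0.487 ± 0.0135. Nnat, a proteolipid gene of the developing brain within Blcap, had 780 and 715 against 707 and 613 at the Blcap start that it does not share, a ratio of 1.13 ± 0.0452.

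Igf2r was the least dense promoter with a TSS interval, and Phlda2, Kcnq1 and Cdkn1c followed. Igf2r, the receptor that clears IGF2, had 132 and 123 normalized counts per kb over its 2 TSS intervals, above only 8.26% of all genes with a TSS interval. In the Kcnq1 cluster, besides Kcnq1 itself, Cdkn1c, a cell cycle inhibitor, had 305 and 279, and Phlda2, which restrains placental growth, had 254 and 257. Igf2, the fetal growth factor, had 355 and 314 at an interval that it shares with the antisense gene Igf2os. Igf2r, Cdkn1c, Phlda2 and Igf2 each lay under the all-gene 25th percentile of 385 in both libraries.

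None of the 6 members of the Dlk1-Dio3 cluster was above the all-gene median. Dlk1, a Notch-related ligand, had 349 and 331 normalized counts per kb. Meg3, the first of the maternally expressed noncoding RNAs, had 348 and 324 over 3 TSS intervals, and Dio3, which inactivates thyroid hormone, had 309 and 302 at an interval shared with its antisense gene. Mirg, the microRNA host at the far end, had 392 and 467, at an annotated start inside the gene and not at its first start. Rian and Rtl1 had no TSS interval, and the intervals nearest to any of their starts, 455 bp and 5121 bp away, had 101 ± 5.78 and 160 ± 18.7.

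Among the remaining members, Peg10, a retrotransposon-derived placental gene, shares a promoter with the sarcoglycan gene Sgce, which had 849 and 823 normalized counts per kb. Plagl1, a zinc finger growth suppressor, had 1019 and 923. Zdbf2, which acts on growth through the hypothalamus, had 766 and 671. Slc22a18, a transporter gene of the Kcnq1 cluster, had no TSS interval, and its nearest interval, 3498 bp from a start, had 208 and 202.

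By textbook assignment, 17 of the 41 members start at a promoter that is methylated in the oocyte, and all 17 had a TSS interval, against 19 of the other 24. Their median density was 720 ± 7.73, against 673 ± 3.04 for the other 19. By usual parental expression, the median was 720 ± 7.73 over 21 paternally expressed genes and 676 ± 1.01 over 13 maternally expressed genes. These medians were set side by side without a test, and single genes of each class covered nearly the whole range, from 305 (Dio3) to 2170 (Mcts2) among the paternal and from 128 (Igf2r) to 1646 (Ube3a) among the maternal genes. Most genes with an oocyte-methylated promoter are also in the paternal class, so the groupings are not separate comparisons. Peg3 and Usp29, in both of these classes, enter with the same interval.

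Alternative promoters of 1 gene could differ far more than the libraries did. Of the members, 10 had more than 1 TSS interval, and the densest was between 1.13 ± 0.0452 times (Blcap) and 55.04 ± 2.93 times (Impact) as dense as the least dense. Impact, a regulator of translation, had 1562 and 1543 normalized counts per kb at its main promoter and 29.5 and 27.0 at an annotated start near its end. The latter interval held only 12 and 11 counts, so this ratio is less certain than its SD over 2 libraries shows. The start of its full-length coding transcript lies just outside the main interval, so that with GENCODE basic transcripts alone Impact counted as having no TSS interval.

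Gnas, which encodes the stimulatory G protein subunit, uses several first exons with different imprints. The most upstream start, that of Nesp, had 62.4 and 64.3 normalized counts per kb at chr2:174284136-174285706, an interval that also holds a start of its antisense partner Nespas. The main Nespas start, near that of the paternally expressed XL form, had 1213 and 1115 at chr2:174294489-174296421. This interval held no annotated start of Gnas itself. An annotated Gnas start 393 bp past the interval chr2:174297236-174297466 (663 and 563) lay in no interval. The exon 1A starts had 803 and 790 at chr2:174327222-174328012, and the exon 1 starts, transcribed from both copies in most tissues, had 1102 and 1070 at chr2:174328956-174331126. The exon 1 interval was 17.2 ± 0.710 times as dense as the Nesp interval. The intervals at the Nespas and exon 1A starts, which are maternally methylated, were thus accessible. The Nesp interval was among the least dense TSS intervals of the members.

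Grb10, an inhibitor of insulin and growth factor signaling, is maternally expressed in most tissues from its upstream promoter and paternally in neurons from downstream starts. The downstream interval at chr11:12025416-12027019 had 773 and 747 normalized counts per kb, and the upstream interval at chr11:12036424-12038582 had 154 and 153. The downstream promoter was 4.95 ± 0.0889 times as dense, while both intervals held 4 ZFP57 words and their ratios of observed to expected CpG sites were 0.975 and 0.988. At Mest the main promoter was 6.34 ± 0.356 times as dense as an upstream start (104 and 103). At Sgce the promoter shared with Peg10 was 4.08 ± 0.184 times as dense as an internal start (202 and 209), and at Commd1 the main start was 7.38 ± 0.675 times as dense as an internal start (152 and 178).

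**Figure D2:**
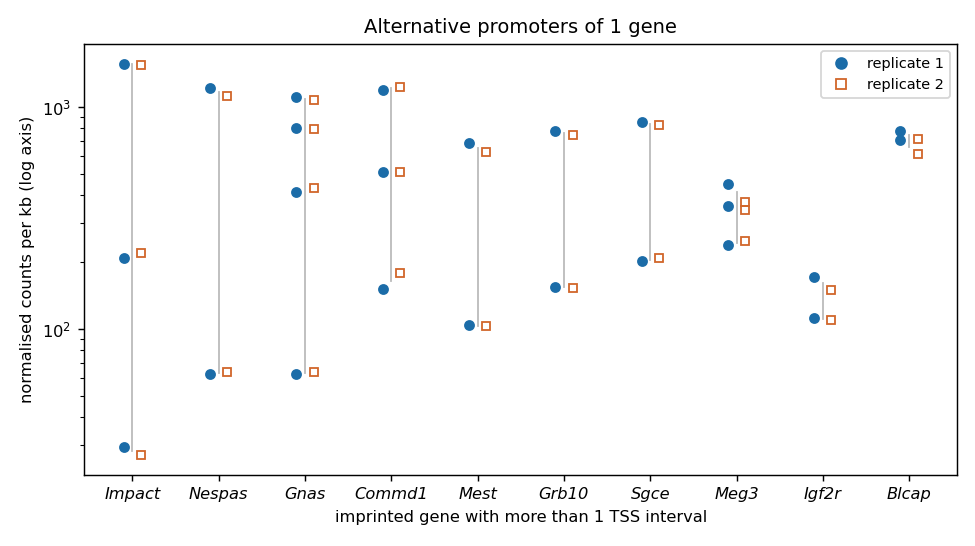
Density of each TSS interval (y axis, normalized counts per kb, log axis) of the 10 imprinted genes with more than 1, in order of the ratio of densest to least dense (x axis). Filled circles are replicate 1, open squares replicate 2, and the gray line joins the lowest and the highest mean. The 2 libraries nearly coincide at each interval, while the intervals of Impact, Nespas and Gnas span more than 10-fold.

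Outside promoters, members had 219 further intervals, of which 8 lay at a TSS of another gene and 211 at none. Of these 211, 130 lay in introns, 42 between genes, 19 in noncoding exons, 14 over coding exons and 6 over untranslated exons. Their median density was 133 ± 6.15, against 123 ± 2.03 over all 101145 intervals outside any TSS. The median member had 5 intervals within 10 kb of the gene, its own TSS intervals included, against 3 for protein-coding genes. Usp29 and Trappc9, both long genes, had 37 and 30 further intervals, and Dio3 had 0.

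The densest of these intervals lay at chr15:73067221-73068054, 6017 bp upstream of Trappc9, with 1880 and 2004 normalized counts per kb, more than at the Trappc9 promoter itself. The next, at chr7:143428079-143429380, began 1037 bp past the end of Kcnq1 and had 1586 and 1548. An interval in an intron of Grb10, chr11:11940911-11943128, had 1168 and 1207, and one at chr2:152717718-152718428, 9048 bp past the end of H13, had 971 and 1084. Each was above the all-gene promoter median of 774 in both libraries.

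The other 6 of the 10 densest lay in Plagl1, Blcap, Usp29, Ndn and Gnas. An intron of Plagl1 held 2 of them, with 914 and 1004 normalized counts per kb at chr10:13115022-13115448 and 892 and 857 at chr10:13116875-13119334. The Blcap intron interval, which began 1212 bp from an annotated start, had 989 and 899, and an interval far inside Usp29 had 854 and 971. The Gnas intron interval at chr2:174305467-174306486, between the Nespas and exon 1A starts, had 822 and 848. With the Ndn interval described above, all 10 lay between 835 and 1942 in the mean of the libraries.

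The interval upstream of H19 was large but sparse, with 111 and 87.3 normalized counts per kb over 2027 bp, below the median of 123 for all intervals outside a TSS. In this region the H19 control element is methylated on the paternal copy and bound by CTCF on the maternal copy, which blocks enhancers from Igf2. The other intervals near H19 lay downstream of it and had 99.5 and 111 (chr7:142565014-142565707) and 76.8 and 56.9 (chr7:142572443-142572846). H19 thus had 3 intervals within 10 kb of the gene and none at its start.

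**Figure D3:**
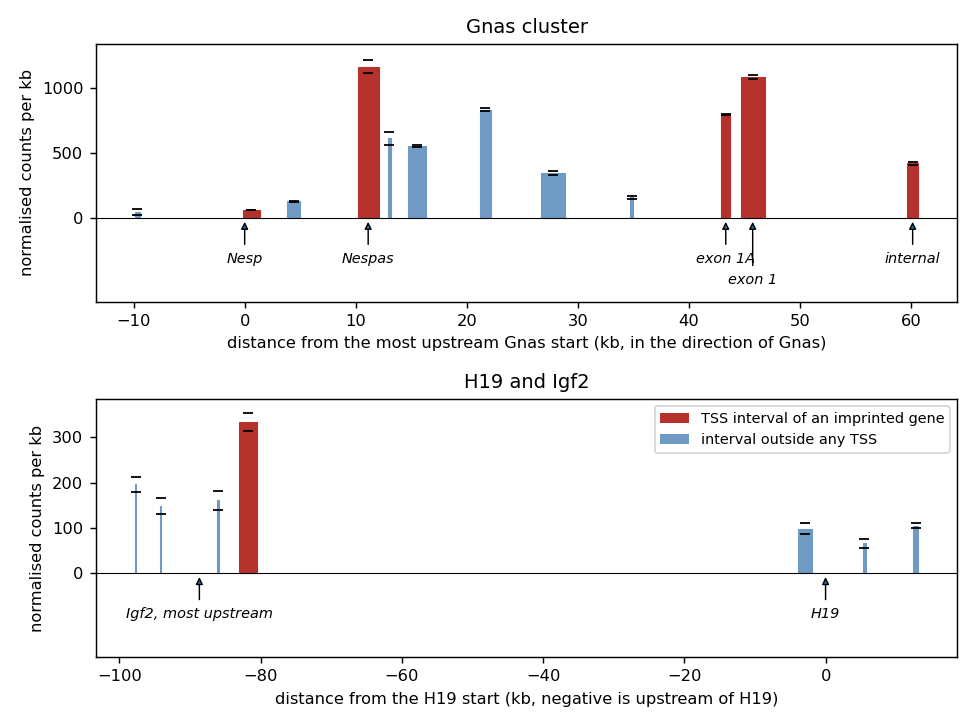
Density of each member interval (y axis, normalized counts per kb, bar from 0, mean of 2 libraries, with a dash for each library) along the Gnas cluster (top) and from Igf2 to H19 (bottom), with distance from a start in kb on the x axis and arrows at annotated starts. In the Gnas cluster the Nesp bar stands at 63.3 and the exon 1 bar at 1086, and no bar stands at the H19 start, while the bar upstream of it is 2027 bp wide and 98.9 high.

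Member TSS intervals were near other TSS intervals in base composition and held the ZFP57 word in a larger share. Median GC content was 56.2% against 58.8%. The CpG ratio, observed over expected from the C and G content, was 0.685 against 0.640 over whole intervals. In the central 300 bp it was 0.711 against 0.717. The ZFP57 word occurred in the central 300 bp of 19 of 46 member TSS intervals (41.3%) against 22.6% of all 18357. Over whole intervals it occurred in 73.9% against 49.4%, at 1.49 words per kb against 0.701. Among intervals of at least 1500 bp, 84.0% of 25 member intervals held it against 69.7% of 5065.

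Genes with an oocyte-methylated promoter held most of these words. With each interval counted once, their 23 TSS intervals included 19 with the word and 14 with at least 3 copies, against 15 and 2 of the 23 intervals of the other members. The 23 intervals take in starts that are not themselves methylated in the oocyte, such as Nesp and exon 1 of Gnas. The promoter of Zrsr1 and the exon 1A interval of Gnas held 2 words each, and the Nnat promoter, which a start of Blcap shares, held 7. Per kb, the intervals of the first class held 2.09 words, those of the second 0.641, and all TSS intervals 0.701.

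Single promoters held many copies of the ZFP57 word, with no scaling by length and with the interval itself in each count below. The Mest, Snrpn, Airn and Peg3-Usp29 intervals were 2759, 2267, 2601 and 3675 bp long, against a median of 1157 bp. They held 3.99, 4.41, 3.08 and 2.18 words per kb, against 0.701 over all TSS intervals. Mest had 11 copies, and 2 of the 18357 TSS intervals held as many or more. Snrpn had 10 (6 of 18357 at or above), Airn and the Peg3-Usp29 promoter 8 each (29 of 18357), and Nnat 7 (62 of 18357). The Peg3-Usp29 promoter held 11 YY1-type words, and 3 of 18357 intervals, this one included, held at least as many. Outside TSS intervals, the interval upstream of H19 held 6 ZFP57 words, and so did the Gnas interval at chr2:174299020-174300675, and 19 of 101145 such intervals held at least as many. A word is only a string of letters here and does not show that the protein was bound.

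Of the other words, GGNGGCAG occurred in 45.7% of member TSS intervals against 49.0% of all, and the second CTCF-type word AGGGGGC in 45.7% against 37.9%. The YY1-type word occurred in 28.3% against 17.3%. In the central 300 bp all 3 directions turned, with 26.1% against 18.5% for GGNGGCAG, 8.70% against 12.5% for AGGGGGC and 4.35% against 5.78% for the YY1-type word. Over the 211 intervals outside any TSS, the ZFP57 word occurred in 8.06% against 8.28%, at 0.215 words per kb against 0.169. All words were searched on both strands, and GGNGGCAG and TGCCGC can overlap.

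**Figure D4:**
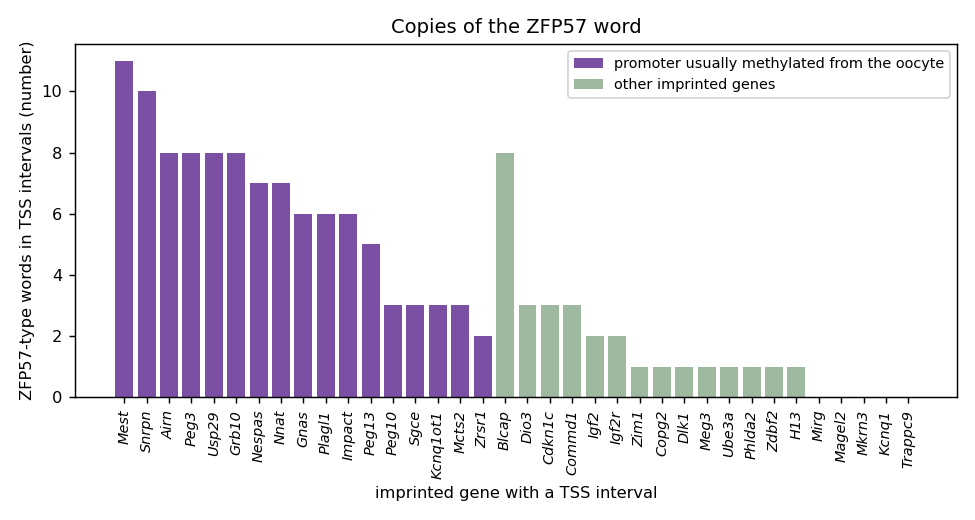
Number of ZFP57 words TGCCGC, on either strand, summed over all TSS intervals of each of the 36 members with one (bars from 0), so that an interval shared by 2 genes counts for both. Purple bars are the 17 genes whose promoter is usually methylated in the oocyte and green bars the other 19. In these sums over all starts of a gene, 16 purple bars but 4 green bars reach 3.

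Regulators of imprints and of DNA methylation mostly had an accessible promoter. Of 17 regulators, all protein-coding, 15 had a TSS interval, against 68.1% of protein-coding genes. Their median density was 902, against 827 for protein-coding genes with one, and 9 were above the all-gene median. Trim28, the corepressor that ZFP57 recruits, had 1600 and 1593 normalized counts per kb, and Zfp57 itself had 528 and 521. The related Zfp445 had 857 and 752, Dnmt1, the maintenance DNA methyltransferase, had 928 and 933, and Ctcf had 1518 and 1407. Smchd1, a chromatin repressor, had 1895 and 1898, the highest of the list, while Setdb1 had only 432 and 363. Germline genes of the list were at the other end, with 55.9 and 25.1 at Dnmt3l and no TSS interval at Dppa3 or Ctcfl.

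No imprinted locus was called different between the libraries. The 2 counts of an interval were compared by an exact binomial test (two-sided) against the share given by the size factors, and 0 of the 265 member intervals were called at an adjusted p under 0.01, as 0% of all 119502 intervals were. The lowest adjusted p of a member interval was 0.172 in this exact test with Benjamini-Hochberg adjustment. At an unadjusted p under 0.05, 34 of 265 (12.8%) were counted against 8.39% of all intervals, and among TSS intervals 11 of 46 against 12.1%. Member intervals also held more counts, with medians of 1085 against 851 at a TSS and 65.5 against 52.5 outside any TSS, and the part of this in the share was not tested. Nothing in the labels says that the libraries came from separate cultures. These p-values only set the difference between these 2 libraries against counting error.

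The median absolute log2 ratio between the libraries was 0.14 over member intervals and 0.16 over all intervals. Of the 128 member intervals with a mean normalized count over 100, 0 differed by more than 2-fold. The largest differences among them were a log2 ratio of replicate 2 over replicate 1 of -0.38 at chr7:143464856-143465225 upstream of Cdkn1c, -0.34 at the interval upstream of H19, 0.32 inside Usp29, 0.31 in Copg2 past the end of Mest and 0.29 within Meg3. For H19 the counts were 224 and 177, with an unadjusted exact p of 0.0189 and an adjusted p of 0.484. None of these 5 was called.

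**Figure D5:**
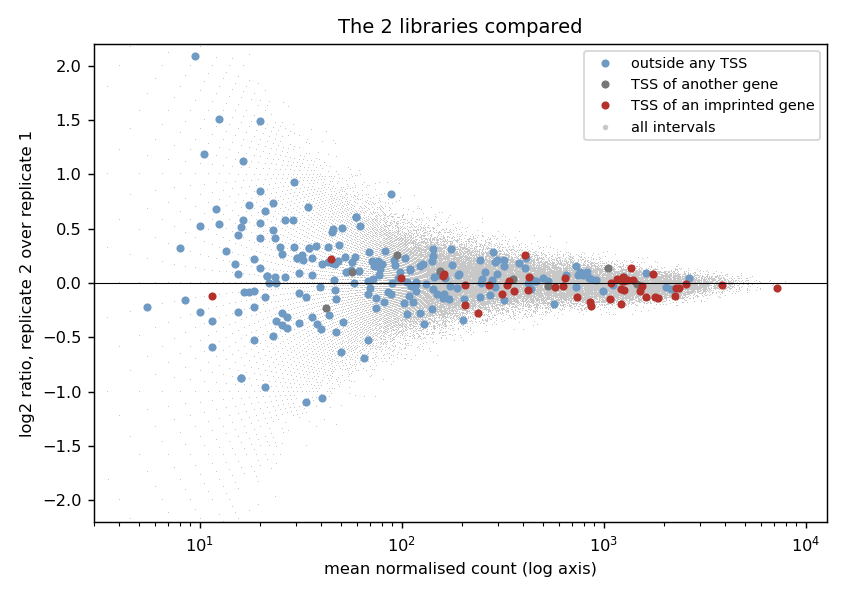
Log2 ratio of replicate 2 over replicate 1 (y axis) against mean normalized count (x axis, log axis) for the 265 member intervals, on all intervals in gray (507 of 119502 fall outside the axes). Red points are TSS intervals of imprinted genes, dark gray points TSS intervals of other genes and blue points intervals outside any TSS. The spread narrows with the count, and the members lie within the gray cloud.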

How the data were processed

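Raw counts of fragments per consensus interval were deposited by the authors, made with featureCounts 2.0.1 per the file header (read pairs, minimum overlap a fraction of 0.2), on mm10. A fragment can be counted in more than 1 interval. The intervals rest on 5 libraries, and 3 count columns of no sample of the series were not used. Scaling used size factors of DESeq2 1.42.0 over the whole table. Genes and starts came from GENCODE on the same assembly, any transcript and gene type, and an interval shared by 2 genes counts for both. The exact binomial test covered all intervals and was checked on simulated data. Fragments carry no molecular identifiers, so the test covers counting error only. Log2 ratios used a pseudocount of 1. Members, word lists and gene lists were chosen with earlier results of these data known. Named further intervals were the 10 densest outside any TSS and the 5 with the largest ratio at a mean normalized count over 100. Sequence was read from the RefSeq copy of GRCm38. BLAST 2.17.0 (at least 100 bp and 90% identity) found matches elsewhere in the genome for 3 of 46 member TSS intervals (Meg3, Blcap and Nnat, Snrpn). Their longest matches were 102, 172 and 132 bp. It also found matches for 19 of 211 member intervals outside any TSS and 1 of 8 at a TSS of another gene. Counts from the matched stretches are uncertain. Tools were R 4.3.3, edgeR 4.0.16, Python 3.11.15, pandas 2.3.3 and scipy 1.17.1. Alternatives were scaling by edgeR TMM or total counts, other windows around starts and genes, a minimum mean count of 10, other start sets, and each library left out.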

Additional observations from a re-analysis of the deposited data

How the results depend on the processing

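No paired analysis was possible because both libraries belong to the same group. The number of members with a TSS interval ranged from 34 to 37 and the number of called intervals was 0 under TMM, total counts and a minimum mean count of 10. With genes without a TSS interval at 0, the median member density was 659 ± 22.01. It was 688 with those genes left out and 740 with each gene's densest interval, a setting chosen after seeing the data, under which the all-gene median was 815 and 16 members lay above it. Leaving out a library gave 644 to 675 for promoters and 129 to 138 for intervals outside any TSS. The 13 members above the all-gene median became 25 with counts summed over the TSS intervals of a gene. The median absolute log2 ratio of 0.14 was 0.0745 over intervals with a mean count over 100 and 0.13 with a pseudocount of 10. The CpG ratio of 0.685 was 0.711 in the central 300 bp, where all TSS intervals had 0.717. The 19 TSS intervals with a ZFP57 word became 34 over whole intervals. GENCODE basic starts (34 members, without Impact and Mirg) and RefSeq starts (37) were also added after seeing the data. With 2 libraries, the SD is itself imprecise, and weak intervals appear only where a peak was called.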

Other observations

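Another 18 imprinted genes, not among the 41, were measured in the same way, and 17 had a TSS interval, with a median density of 395 and 5 above the all-gene median of 774. Tssc4 and Nap1l4, which belong to the Kcnq1 region and are imprinted mainly in placenta, had 2305 and 2233 and 2187 and 2193 normalized counts per kb in replicates 1 and 2. Tssc4 was thus denser than any of the 41 members, while Nap1l4 lay within the spread of Mcts2. In the same region, Ascl2, a factor of trophoblast and stem cells, and Tspan32 had 402 and 388 and 21.1 and 27.1. Inpp5f, a phosphatase gene with an imprinted brain form, had 1382 and 1292, and Atp10a, beside Ube3a, had 1176 and 1182. Slc22a2, a transporter gene beside Igf2r, had no TSS interval and its neighbor Slc22a3 had 212 and 219. Both dense and sparse promoters were thus found in the Kcnq1 region.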
